A study of Homo sapiens with 6 samples.

Results

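The 35 genes described here encode subunits of the proteasome and of its activators, and they were taken by symbol from a list: PSMA1 to PSMA7, PSMB1 to PSMB7, PSMC1 to PSMC6, 11 PSMD genes (PSMD1 to PSMD4, PSMD6 to PSMD8 and PSMD11 to PSMD14) and PSME1 to PSME4. All 35 were found among the 62111 gene IDs that both deposited tables list, each under a single ID, and all 35 passed the filter on low values, which kept genes averaging 1 TPM or more. TPM is a read count divided by gene length and scaled to 1000000 per library. The RNA came from K562, a human cell line from a chronic myeloid leukaemia in blast crisis, with 3 libraries from cells carrying SF3B1-K700E, a substitution in the splicing factor SF3B1, and 3 from cells labelled SF3B1-wt (WT below). All 6 come from the same cell line, no treatment is named for either group, and the labels do not say how the K700E cells were made, whether they are 1 clone, or whether replicates were separate cultures. The p-values therefore measure only the spread between these libraries.

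The proteasome is the barrel-shaped protease that degrades ubiquitin-tagged proteins. Its 20S core is built from rings of alpha subunits (PSMA genes), which gate the entrance, and rings of beta subunits (PSMB genes), of which PSMB5, PSMB6 and PSMB7 encode the cleaving sites. The 19S cap binds the core and contains a ring of ATPases (PSMC genes), which unfold substrates, and non-ATPase subunits (PSMD genes), which bind ubiquitin chains and remove them. PSME1 and PSME2 encode the PA28 activator of the core, PSME3 encodes PA28 gamma and PSME4 encodes PA200. Growing cells need all parts of the particle, and the transcription factor NFE2L1 (also called NRF1) raises the subunit genes together when proteasome activity falls, through antioxidant response elements in their promoters.

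Promoter letters are shown for 4 genes to set side by side genes with and without the motifs searched: PSMB3 and PSMB4 differed most within the 20S beta class in the number of matches, and PSMA5 and PSME4 are among the members whose test is given. The windows are RefSeq's for GRCh38.p14, from 250 bases before to 50 after the annotated start, and 30 of the 35 members had at least 1. The 120 bases before the start are printed 5′ to 3′ on the gene's strand, and capitals mark TGACNNNGC, the core of the antioxidant response element, or CCAAT, the box bound by the factor NF-Y, on either strand.
PSMB3 (chr17:38752621-38752740, plus strand): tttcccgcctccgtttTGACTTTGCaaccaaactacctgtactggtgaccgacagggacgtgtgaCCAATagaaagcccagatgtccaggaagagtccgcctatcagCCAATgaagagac
PSMB4 (chr1:151399453-151399572, plus strand): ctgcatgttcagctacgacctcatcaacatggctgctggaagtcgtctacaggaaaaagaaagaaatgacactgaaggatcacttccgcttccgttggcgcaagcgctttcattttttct
PSMA5 (chr1:109426449-109426568, minus strand): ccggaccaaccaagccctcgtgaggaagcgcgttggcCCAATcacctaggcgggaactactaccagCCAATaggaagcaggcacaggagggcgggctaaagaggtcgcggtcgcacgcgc
PSME4 (chr2:53970994-53971113, minus strand): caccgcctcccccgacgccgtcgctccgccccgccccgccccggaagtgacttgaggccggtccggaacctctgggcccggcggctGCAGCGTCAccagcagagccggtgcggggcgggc

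PSMB3 held the element core from position -104 and CCAAT from -55 and -13, counting back from -1 at the base before the start, while PSMB4 held no match to either motif in its window. PSMA5 held CCAAT from -83 and -54, and PSME4 held the core on the opposite strand from -34. Over the members, 10 of 30 (33.3%) had the core in at least 1 window, against 16.1% of all 27305 genes with a window. CCAAT was found in 16 of 30 members (53.3%), against 39.7% of all genes, and PSMA4, PSMB3, PSMC5 and PSMD3 had both motifs. In PSMC5 the core and CCAAT lay in different windows. By single windows the core was in 10 of 36 member windows, against 13.3% of all 35116 windows, and CCAAT in 16 of 36, against 34.6%. Among the activators PSME1, PSME2 and PSME4 had the core, and PSME3 had CCAAT. PSMA7, PSMB1, PSMB6, PSMB7 and PSMD4 had no window in the table. The matches are a description of letters and not of factor binding.

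The read totals recovered from the TPM values, which cover only reads counted in genes, were 104642332 to 136588117 read ends per library. SF3B1 itself had 160.5, 136 and 118 TPM in the K700E libraries and 144, 98.9 and 115 TPM in the WT libraries, with a limma adjusted p of 0.602. Values per gene do not show the substitution, so this does not check the genotype. The erythroid genes GATA1, TAL1, KLF1, HBG1, HBG2, HBZ and TFRC, which K562 cells express, all had at least 54.4 TPM in every library. Of 16 markers of other cell types looked at in the tables, 14 were at or under 1.19 TPM in every library. The exceptions were COL1A1 at 1.31 to 5.07 TPM and EPCAM at 43.4 to 78.9 TPM. The summed T cell markers (CD3E, CD2 and CD8A) were at 0.742 to 1.38 TPM in K700E libraries and 0.347 to 0.517 TPM in WT libraries, and their part in the results was not tested. Of the fibroblast markers, COL1A1 was at 3.29 to 5.07 TPM in K700E libraries and 1.31 to 2.44 TPM in WT libraries, DCN at 0.172 to 0.195 and 0.224 to 0.310 TPM in the same order, and PDGFRA was under 0.05 TPM in each library. WT replicate 3 lay between WT replicates 1 and 2 in 75.9% of the 15493 genes tested and in 28 of the 35 members. K700E replicate 1 was the highest of the 6 libraries in 32.8% of genes tested and in 31 of the 35 members.

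The comparison of K700E with WT cells asked whether subunit genes differed with the substitution. No member passed the limma test, in either direction: 0 of 35 were called at an adjusted p under 0.05, where 1.15% of all genes tested were called higher and 0.232% lower in K700E. PSMD4, a ubiquitin receptor of the 19S cap, and PSME3 were the only 2 of 35 with an unadjusted p under 0.05 (5.71%), both higher in K700E, against 16.5% of all genes tested, of which 13% were higher and 3.52% lower. That count was 0 without K700E replicate 2 or WT replicate 3 and in limma with no trend, 3 without K700E replicate 3 or WT replicate 2, and 6 without WT replicate 1. Without K700E replicate 1 it was also 2, but these did not include PSMD4 or PSME3. Their limma adjusted p was then 0.51 and 0.528, while the smallest of a member was 0.2165. With median-ratio scaling and with GC correction the count was again 2, and again without PSMD4 or PSME3. The limma adjusted p of PSMD4 and PSME3 was 0.697 and 0.591 with median-ratio scaling, and 0.363 and 0.288 with GC correction. The smallest of a member was 0.188 with median-ratio scaling and 0.104 with GC correction. The log2 difference was above 0 in 29 of 35 members (82.9%), against 69.3% of all genes. The median log2 difference of the members on the log2(TPM + 1) scale was 0.19, and that of all genes tested was 0.13, which puts the members 0.06 above the median gene. Leaving out 1 library put this distance between 0.0095 (without K700E replicate 1) and 0.14 (without K700E replicate 3). With median-ratio scaling the median of all genes moved to -0.04 and that of the members to 0.01, and 20 of 35 members were above 0. The 10 members whose test is given below then had log2 differences from 0.06 (PSMA5) to 0.20 (PSME3), and from 0.12 (PSMA5) to 0.24 (PSME4) with GC correction, each smaller than as deposited. A p that misses the threshold does not show equal levels: the standard errors of the members ran from 0.12 to 0.26 log2 units.

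**Figure D1:**
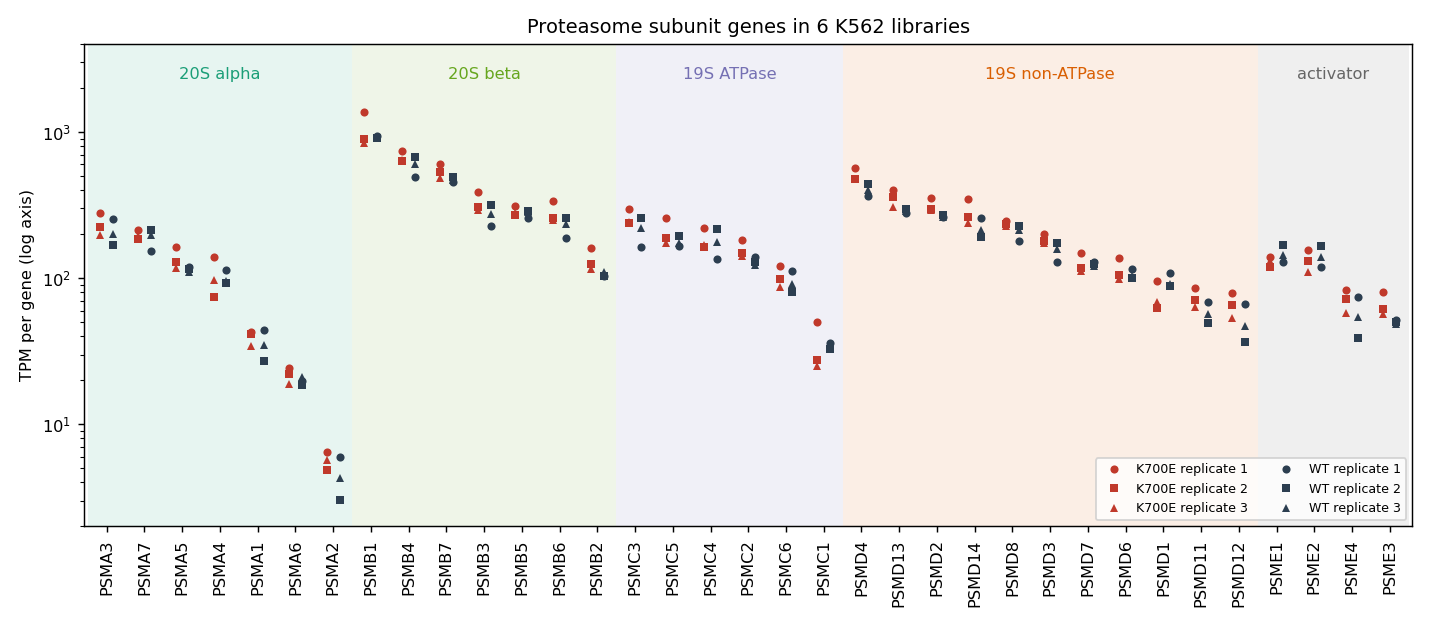
TPM of each of the 35 subunit genes (log axis) in the 3 K700E libraries (red, left of each gene) and the 3 WT libraries (dark, right), with 1 symbol per replicate and genes ordered by mean level within each class. Points of the groups overlap in 28 of 35 genes, and PSMA1, PSMA2, PSMA6 and PSMC1 have the lowest means over all libraries, although some of their points lie above single points of other members.

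All 3 K700E libraries lay above all 3 WT libraries in 7 members (20%), against 19% of all genes tested, so the share is near that of all genes. They were PSMB2, PSMC2, PSMD2, PSMD3, PSMD4, PSMD13 and PSME3. No member had all K700E libraries below all WT libraries, as 4.99% of genes tested had. The same 7, and no others, were found without WT replicate 3 (20.7% of all genes), without K700E replicate 1 (22.8%) and without K700E replicate 2 (24.1%). Without WT replicate 2 the count was 14, against 24.6% of all genes, without WT replicate 1 it was 13, against 33.9%, and without K700E replicate 3 it was 13, against 27.5%. All K700E libraries lay below all WT libraries in 4 members without K700E replicate 1, against 8.75% of all genes, and in 1 without WT replicate 1, against 11.8%. There was none without K700E replicate 2, K700E replicate 3, WT replicate 2 or WT replicate 3, where 6.56%, 7.44%, 9.06% and 5.6% of all genes were so placed. These counts, and the overlap given for single genes below, rest on TPM as deposited and were not recomputed with median-ratio scaling. That scaling divides the K700E libraries by 1.131, 1.041 and 1.047 and the WT libraries by 0.9573, 0.9085 and 0.9654. It therefore lowers K700E values against WT values. Divided by these factors, K700E replicate 3 lies below a WT library in each of the 7 members named above. These 7 separations thus hold on TPM as deposited and not on that scale.

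Among the 20S alpha genes, whose products form the outer rings of the core, none was called and none had groups that did not overlap. PSMA5 (ENSG00000143106, GRCh37 chromosome 1, 109941664 to 109969070, minus strand) had 164.5, 129.6 and 118 TPM in K700E cells, against 118.4, 115.5 and 109.7 TPM in WT cells. K700E replicate 3 lay just under WT replicate 1, and the groups overlapped there. The log2 difference was 0.25 (SE 0.15, 95% interval -0.11 to 0.60), with a limma adjusted p of 0.468, and the difference was 0.11 without K700E replicate 1. PSMA2 (ENSG00000106588, chromosome 7, 42956460 to 42971784, minus strand) had 6.43, 4.90 and 5.66 TPM in K700E cells, against 5.96, 3.04 and 4.29 TPM in WT cells. WT replicate 1 lay above 2 of the K700E libraries, and the log2 difference of 0.32 (SE 0.23, limma adjusted p 0.524) was within the spread. The difference was 0.52 without WT replicate 1 and 0.13 without WT replicate 2. PSMA2 was the lowest of all 35 members, with 254 to 431 recovered read ends per library, where the next lowest, PSMA6, had at least 1240.

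PSMA3 was the highest alpha gene, at 234 ± 42.4 TPM in K700E cells and 207 ± 42.2 TPM in WT cells (SD, n = 3 each). PSMA4 had 139, 73.8 and 96.9 TPM in K700E cells, against 113, 92.5 and 95.7 TPM in WT cells, with a log2 difference near 0. In PSMA4 the K700E libraries held both the highest and the lowest value of the 6. PSMA7 was at 198 ± 15.2 TPM in K700E cells and 188 ± 31.1 TPM in WT cells, PSMA1 at 39.6 ± 4.85 and 35.4 ± 8.54 TPM in the same order, and PSMA6 at 21.7 ± 2.80 and 19.8 ± 1.31 TPM. The alpha genes thus spanned means over the 6 libraries of 5.05 to 220.4 TPM, although their products occupy equal places in the ring.

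The 20S beta genes were the most abundant class, and all 7 had a log2 difference above 0, between 0.05 and 0.31, against 69.3% of all genes above 0, with none called. PSMB2 (ENSG00000126067, GRCh37 chromosome 1, 36065142 to 36107127, minus strand) had 160.1, 125 and 115 TPM in K700E cells, against 103.8, 104 and 110.1 TPM in WT cells. Its groups did not overlap, K700E replicate 3 and WT replicate 3 being the nearest libraries. The log2 difference was 0.31 (SE 0.15, 95% interval -0.04 to 0.67), with a limma adjusted p of 0.359, and the difference was 0.17 without K700E replicate 1. PSMB6 (ENSG00000142507, chromosome 17, 4699439 to 4701797, plus strand), which encodes the caspase-like cleaving site, had 338, 256 and 248 TPM in K700E cells, against 187.5, 258 and 235 TPM in WT cells. WT replicate 2 exceeded 2 K700E libraries, and the log2 difference was 0.31 (SE 0.18), with a limma adjusted p of 0.442. The difference was 0.17 without K700E replicate 1 and 0.18 without WT replicate 1.

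The other cleaving sites were closer between the groups or had a similar spread. PSMB5, the chymotrypsin-like site and the main target of bortezomib, was at 287 ± 20.3 TPM in K700E cells and 276 ± 14.5 TPM in WT cells (SD, n = 3 each), with a log2 difference of 0.05 and a 95% interval of -0.22 to 0.32. PSMB7, the trypsin-like site, was at 540.4 ± 59.8 TPM in K700E cells and 471 ± 17 TPM in WT cells. PSMB1 was the highest of all members, with 1376, 898 and 839 TPM in K700E cells, against 938.5, 905 and 930.4 TPM in WT cells. In PSMB1 a single library, K700E replicate 1, lay above every WT library and the other two K700E libraries lay below them all. PSMB3 was at 329 ± 51.5 TPM in K700E cells and 273 ± 43.8 TPM in WT cells, and PSMB4 at 670.1 ± 58.4 and 591 ± 88.5 TPM in the same order. PSMB2, the lowest beta gene, averaged 119.6 TPM over the 6 libraries.

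The 19S ATPase genes, whose products form the ring that unfolds substrates, had log2 differences from -0.06 (PSMC1) to 0.28 (PSMC3), with none called. PSMC2 (ENSG00000161057, GRCh37 chromosome 7, 102985361 to 103009842, plus strand) had 182.5, 149 and 142 TPM in K700E cells, against 139, 129 and 124 TPM in WT cells. The groups did not overlap, by a small margin, and the log2 difference was 0.26 (SE 0.14, 95% interval -0.06 to 0.59) with a limma adjusted p of 0.396. Without K700E replicate 1 the difference was 0.16. PSMC3 (ENSG00000165916, chromosome 11, 47440320 to 47448024, minus strand) had 296, 239.9 and 240.4 TPM in K700E cells, against 164, 259.8 and 221 TPM in WT cells. WT replicate 2 lay above 2 K700E libraries, and the log2 difference was 0.28 (SE 0.19), with a limma adjusted p of 0.506. The difference was 0.18 without K700E replicate 1, 0.10 without WT replicate 1 and 0.43 without WT replicate 2. PSMC4 was at 184 ± 31.5 TPM in K700E cells and 176 ± 40.8 TPM in WT cells, PSMC5 at 206 ± 43.7 and 177 ± 14.5 TPM in the same order, and PSMC6 at 102 ± 17 and 94.7 ± 16.3 TPM (SD, n = 3 each). PSMC1 was the lowest of the class, with 50.4, 27.4 and 25.1 TPM in K700E cells, against 36.0, 32.7 and 33.3 TPM in WT cells, where again K700E replicate 1 stood above and the other two below every WT library.

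Among the 19S non-ATPase genes 9 of 11 had a log2 difference above 0, against 69.3% of all genes, and 4 of 11 had all K700E libraries above all WT libraries, against 19% of all genes, with none called. PSMD4 (ENSG00000159352, GRCh37 chromosome 1, 151227185 to 151239955, plus strand) had 568, 476 and 475 TPM in K700E cells, against 367, 442 and 399.8 TPM in WT cells. Every K700E library exceeded every WT library, and the mean was 506 ± 53.6 TPM in K700E cells and 403 ± 37.5 TPM in WT cells (SD, n = 3 each). The log2 difference was 0.33 (SE 0.13, 95% interval 0.02 to 0.63), with an unadjusted p of 0.0382 and a limma adjusted p of 0.270, the smallest of all members. PSMD13 (ENSG00000185627, chromosome 11, 236976 to 252984, plus strand), a scaffold subunit of the lid, had 399.8, 360.3 and 304 TPM in K700E cells, against 280.2, 296 and 289.6 TPM in WT cells. Its groups did not overlap either, and the log2 difference was 0.29 (SE 0.13), with a limma adjusted p of 0.335.

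PSMD2, a large scaffold subunit of the cap, was at 314 ± 33.6 TPM in K700E cells and 266 ± 4.95 TPM in WT cells (SD, n = 3 each), and PSMD3, a lid subunit, at 185 ± 14.3 TPM in K700E cells and 153 ± 22.5 TPM in WT cells. Neither pair of groups overlapped, although in PSMD3 the nearest libraries were 174 TPM in K700E cells and 173 TPM in WT cells. PSMD14, the enzyme that cuts ubiquitin chains from substrates, was at 282 ± 57.6 TPM in K700E cells and 221 ± 33.3 TPM in WT cells. PSMD11 and PSMD12, lid subunits with lower levels, were at 73.4 ± 11.5 and 66 ± 13 TPM in K700E cells, against 58.2 ± 9.71 and 50.2 ± 15.3 TPM in WT cells. PSMD12 had the widest positive log2 difference of the members, 0.41, with a 95% interval of -0.16 to 0.98.

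PSMD1, the other large scaffold subunit, had the most negative log2 difference of the members. It had 96.2, 62.4 and 68.1 TPM in K700E cells, against 108.5, 87.7 and 91.1 TPM in WT cells. K700E replicate 1 lay above 2 WT libraries and the other two K700E libraries lay below all 3. The log2 difference was -0.36 (SE 0.19, 95% interval -0.80 to 0.08), with a limma adjusted p of 0.403. The remaining lid genes PSMD6, PSMD7 and PSMD8 were at 113, 126 and 235 TPM on average in K700E cells, against 106, 125 and 207 TPM in WT cells.

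**Figure D2:**
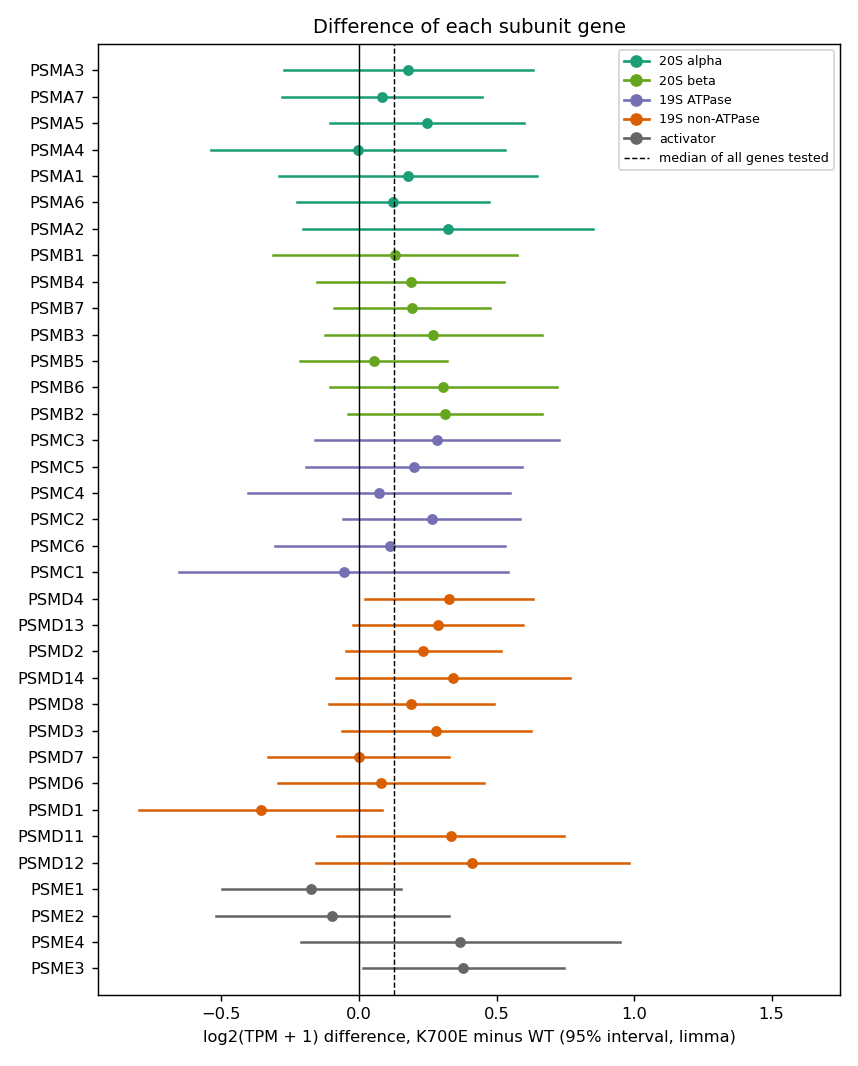
Difference in log2(TPM + 1), K700E minus WT, for each of the 35 genes (points) with its 95% interval from limma (lines), by class; the dashed line is the median of all genes tested, 0.13. The intervals of PSMD4 and PSME3 alone lie above 0, before any adjustment, and PSMD1 has the lowest point, at -0.36.

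The activator genes had log2 differences of both signs, with PSME3 and PSME4 above 0, PSME1 and PSME2 below 0 and none called. PSME3 (ENSG00000131467, GRCh37 chromosome 17, 40976443 to 40995777, plus strand), which encodes the nuclear activator PA28 gamma, had 79.8, 61.3 and 56.8 TPM in K700E cells, against 51.5, 49.9 and 48.5 TPM in WT cells. The groups did not overlap, and the log2 difference was 0.38 (SE 0.16, 95% interval 0.01 to 0.75), with an unadjusted p of 0.0436 and a limma adjusted p of 0.286, and the difference was 0.24 without K700E replicate 1. PSME4 (ENSG00000068878, chromosome 2, 54091206 to 54198130, minus strand) had 82.4, 71.9 and 57.3 TPM in K700E cells, against 74.0, 39.0 and 54.0 TPM in WT cells, and its log2 difference was 0.37 (SE 0.25, limma adjusted p 0.510). WT replicate 1 lay above 2 of the K700E libraries in PSME4, whose log2 difference was 0.59 without WT replicate 1 and 0.14 without WT replicate 2.

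PSME1 and PSME2 are neighbours on chromosome 14, with 4397 bases between them on GRCh37, and are known to be induced together by interferon gamma. PSME1 had 139, 119.5 and 131 TPM in K700E cells, against 129.6, 167.5 and 144 TPM in WT cells, and PSME2 had 156, 131 and 110.1 TPM in K700E cells, against 119, 166 and 139.7 TPM in WT cells. Both log2 differences were below 0, at -0.17 and -0.10, both groups overlapped, and WT replicate 2 was the highest library for each gene. Members on chromosome 14 numbered 7, as many as on chromosome 17.

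Setting the core against the cap, the 14 genes of the 20S core summed to 4787, 3700.1 and 3565 TPM in K700E cells, against 3376, 3667 and 3571 TPM in WT cells. The 17 genes of the 19S cap summed to 3787, 3096 and 2943 TPM in K700E cells, against 2718, 2913 and 2775 TPM in WT cells. On TPM as deposited the 19S sums did not overlap between the groups, with K700E replicate 3 just above WT replicate 2, while the 20S sums did overlap. K700E replicate 1 had the highest sum of both. The sums were not recomputed with median-ratio scaling, which lowers K700E values against WT values, so this narrow separation of the 19S sums depends on the scale. The median log2 difference was 0.18 for 20S genes and 0.23 for 19S genes, which is 0.06 and 0.11 above the median gene. Without K700E replicate 1 these medians were 0.11 and 0.16, where that of all genes was 0.11. Without WT replicate 1 both were 0.16, so that core and cap then had the same median to 2 decimals. With median-ratio scaling they were 0.0010 and 0.05.

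The summed 20S level was 1.26, 1.20 and 1.21 times the summed 19S level in K700E cells, and 1.24, 1.26 and 1.29 times in WT cells. The ratio averaged 1.22 ± 0.0361 in K700E cells and 1.26 ± 0.0225 in WT cells (SD, n = 3 each), and the groups overlapped because K700E replicate 1 lay above 2 WT libraries. The log2 ratio of the sums, K700E minus WT, was -0.0457, and it was -0.0695 without K700E replicate 1, -0.0289 without K700E replicate 2 and -0.0320 without WT replicate 3. The ratio of the medians over genes averaged 1.22 ± 0.0524 in K700E cells and 1.21 ± 0.0906 in WT cells. The order of the members by level was almost the same in every library: Spearman's rho over the 35 members ran from 0.961 to 0.994 between pairs of libraries, as a description of genes that share their libraries and lengths.

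**Figure D3:**
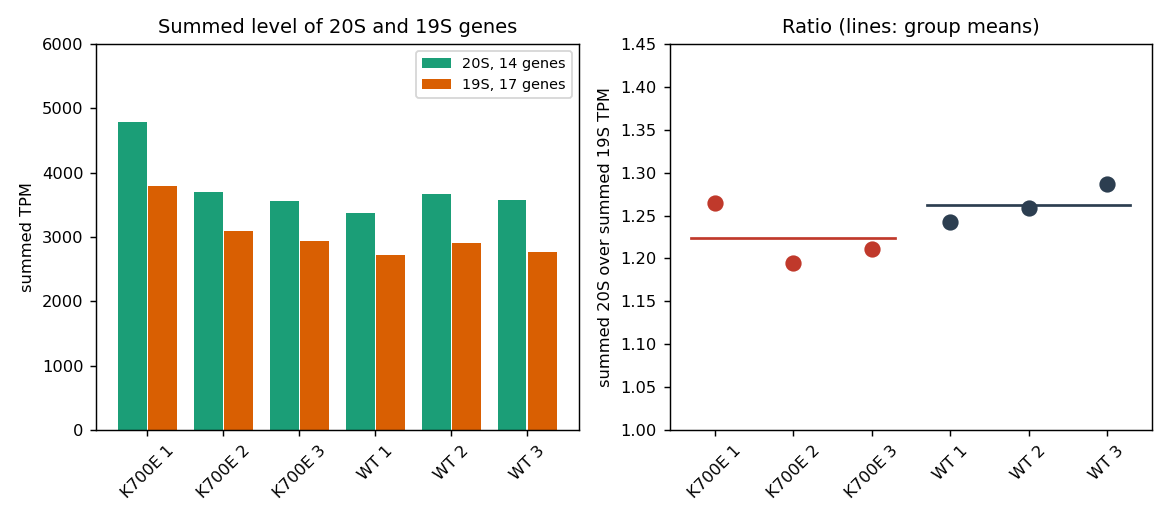
Left, summed TPM of the 14 genes of the 20S core and the 17 genes of the 19S cap in each library (bars from 0). Right, the ratio of the sums in each library (points, axis from 1.0) with the group means (lines, 1.22 in K700E and 1.26 in WT), where K700E replicate 1 lies among the WT libraries.

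Levels within a class differed by far more than the groups did, and the lowest members shared exon bases with other annotated genes. From the exons in the deposited table, 25 of 35 members shared no exon base with another gene, 5 shared up to 25% and 5 shared more. PSMC1 shared 83.2% of its exon bases with NRDE2 on the opposite strand, PSMA6 63.9% with ENSG00000258790, PSMA2 54.0% with ENSG00000256646 and PSMA1 41.4% with ENSG00000256206, these PSMA partners all being protein-coding genes on the same strand. PSMD7 shared 27.6% with the transcript ENSG00000259972 on the opposite strand. PSMA2, PSMA6, PSMC1 and PSMA1, at means of 5.05, 20.8, 34.2 and 37.5 TPM, were the 4 lowest of the 35 members, and the lowest gene with at most 25% shared, PSME3, was at 58.0 TPM.

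The overlapping partners of these 5 genes were themselves low or at 0. The partner of PSMA2 was listed at 0 in all 6 libraries, those of PSMA1 and PSMA6 were under 0.1 TPM in each, that of PSMD7 was at 0.751 to 1.34 TPM, and NRDE2 had 4.15, 2.40 and 2.54 TPM in K700E cells and 3.15, 2.92 and 3.09 TPM in WT cells. How reads in shared bases were assigned is not given in the sources used here, so the levels of these 5 genes are uncertain. The span from the highest to the lowest mean was 194-fold over all members and 16.9-fold over the 30 with at most 25% shared. Without the 5 the median log2 difference was 0.19 for the core and 0.26 for the cap, and the ratio of the sums averaged 1.26 ± 0.0434 in K700E cells and 1.32 ± 0.0221 in WT cells (SD, n = 3 each).

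**Figure D4:**
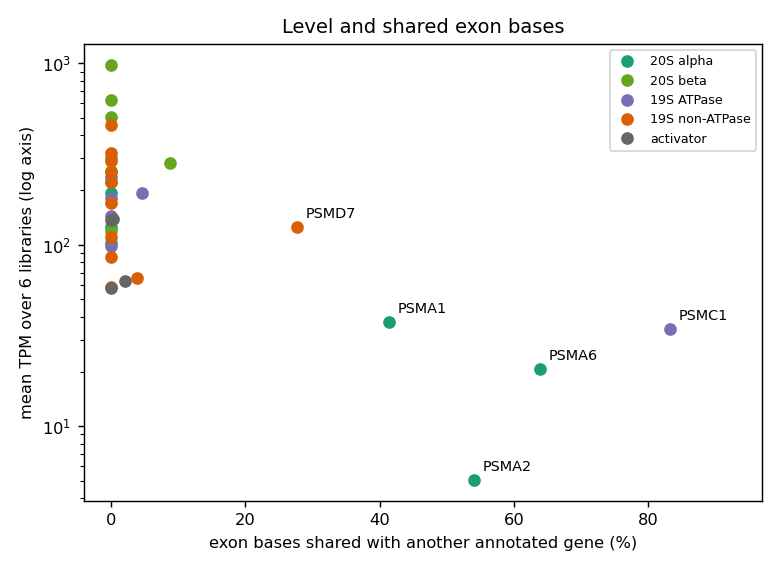
Mean TPM over the 6 libraries (log axis) against the share of exon bases that each member has in common with another annotated gene, coloured by class. The 4 lowest members, PSMA2, PSMA6, PSMC1 and PSMA1, share 41.4 to 83.2% of their exon bases.

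Processed pseudogenes can also take reads from their parent genes. The tables list 42 genes named as pseudogenes of PSMA to PSME genes, of which 3 had a mean of at least 1 TPM. PSMC1P1 averaged 4.27 TPM in K700E cells and 4.11 TPM in WT cells, PSME2P2 3.33 and 4.64 TPM in the same order, and PSME2P1 2.05 and 2.23 TPM. Summed over all its pseudogenes, the mean came to 12.8% of the level of PSMC1, 4.82% of PSME2, 3.58% of PSMA6 and 1.13% of PSMA2, and to under 0.1% for each of the other 11 members with a listed pseudogene.

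The spread between the WT libraries followed the GC content of the transcripts, from 39.5% in PSME4 to 56.8% in PSMD8. All 14 members at or under 45% GC were lower in WT replicate 2 than in WT replicate 1, by a median of -0.36 log2 units, while 4 of the 21 members over 45% were lower, with a median of 0.27 in WT replicate 2 minus WT replicate 1. Spearman's rho of GC content with the difference between these 2 libraries was 0.87 over the 35 members and 0.71 over 15129 genes tested, as a description across genes that share their libraries. PSMC4, at 55.2% GC, had 217 TPM in WT replicate 2 and 136 TPM in WT replicate 1, and PSMD12, at 41.2% GC, had 36.7 and 66.8 TPM in the same order. Between the groups, rho of GC content with the K700E minus WT difference was -0.07 over the members. The part that GC content has in the members' values was not tested beyond the correction. With a loess correction on GC content their median log2 difference was 0.04, and that of all genes was -0.01. The correction also recentres each library, so both medians moved together. The members were then 0.05 above the median gene, against 0.06 as deposited. With this correction the smallest limma adjusted p of a member was 0.104. That member was not among the 10 whose test is given, and the direction of its difference in that fit is not reported here.

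**Figure D5:**
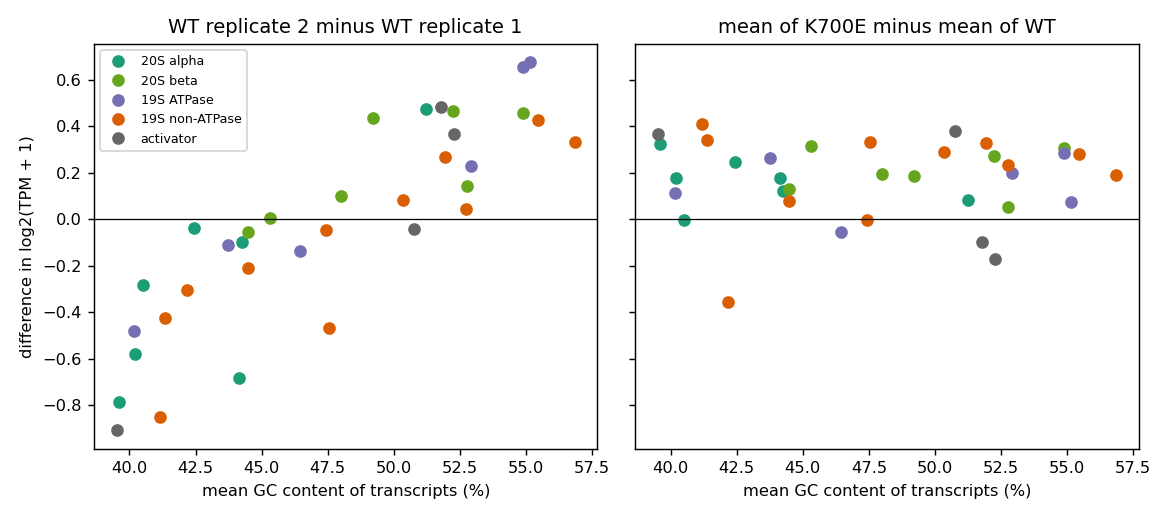
Difference in log2(TPM + 1) against mean GC content of the transcripts (%) for the 35 genes, coloured by class: WT replicate 2 minus WT replicate 1 on the left, mean of K700E minus mean of WT on the right, on shared axes. The left points climb with GC content (rho 0.87) and the right points do not (rho -0.07).

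The other genes of the ubiquitin-proteasome pathway, from lists chosen with earlier results of these data known, had no member past the threshold either. Of 50 listed genes 47 were tested, and limma called 0 higher and 0 lower, with 3 higher and 3 lower at an unadjusted p under 0.05, against 13% and 3.52% of all genes. The assembly chaperones held the smallest adjusted p among them: POMP, the chaperone that completes the core, had 352, 272.5 and 213 TPM in K700E cells, against 195.5, 126.5 and 157 TPM in WT cells. Every K700E library exceeded every WT library in POMP, and the log2 difference was 0.79 (SE 0.23), with an unadjusted p of 0.00903 and a limma adjusted p of 0.15. PAAF1, a chaperone of the ATPase ring, was at 16.1 ± 0.492 TPM in K700E cells and 21.7 ± 3.89 TPM in WT cells (SD, n = 3 each), without overlap, with a limma adjusted p of 0.289. The median log2 difference of the 9 chaperones was 0.23, with 7 above 0, against a median of 0.13 and 69.3% above 0 over all genes tested.

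Immunoproteasome subunits, which replace the cleaving sites in cells exposed to interferon, were low. PSMB9 had 9.97, 3.51 and 4.07 TPM in K700E cells, against 3.15, 7.11 and 5.39 TPM in WT cells, and PSMB10 had 7.56, 7.84 and 13.8 TPM in K700E cells, against 2.00, 21.6 and 10.8 TPM in WT cells. Both overlapped between the groups, with limma adjusted p of 0.946 and 0.929. PSMB8 was under 0.46 TPM in each library, and the thymus subunit PSMB11 and the testis subunit PSMA8 were at or near 0, so that these 3 were not tested. Of the cap subunits and the inhibitor outside the member list, SEM1 and ADRM1 had limma adjusted p of 0.576 and 0.937. SEM1, a small lid subunit, was at 42.4 ± 4.94 TPM in K700E cells and 37.0 ± 4.37 TPM in WT cells, and ADRM1, a ubiquitin receptor, at 48.6 ± 3.43 and 50.9 ± 26.3 TPM in the same order (SD, n = 3 each).

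Of the enzymes and shuttle receptors that work at the proteasome, UBE3C, a ligase that extends chains on bound substrates, was at 63.0 ± 3.11 TPM in K700E cells and 50.3 ± 6.15 TPM in WT cells (SD, n = 3 each), with a limma adjusted p of 0.301. DDI2, the protease that activates NFE2L1, was at 30.7 ± 4.15 TPM in K700E cells and 22.8 ± 7.23 TPM in WT cells (limma adjusted p 0.404). Among ubiquitin genes and E1 enzymes RPS27A, which encodes ubiquitin fused to a ribosomal protein, was at 2330 ± 116 TPM in K700E cells and 2853 ± 130 TPM in WT cells, without overlap, with a log2 difference of -0.29 and a limma adjusted p of 0.226. UBA1, the main E1 enzyme, was at 147 ± 5.88 TPM in K700E cells and 125 ± 25.1 TPM in WT cells (limma adjusted p 0.513). Genes for cytosolic ribosomal proteins together took 16.7 to 17.4% of TPM in K700E libraries and 19.5 to 25.5% in WT libraries, and the part of this in the TPM of other genes was not tested beyond a rescaling: without those and the mitochondrial genes, the members' median log2 difference was 0.09 and that of all genes 0.04.

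VCP, the segregase that hands substrates to the proteasome, and its cofactors had no gene called in 8 tested. NPLOC4, a VCP cofactor, was at 48.2 ± 1.10 TPM in K700E cells and 39.2 ± 5.54 TPM in WT cells (SD, n = 3 each), without overlap, with a limma adjusted p of 0.358. FAF2, a cofactor at the endoplasmic reticulum, was at 62.0 ± 3.93 TPM in K700E cells and 53.5 ± 5.92 TPM in WT cells (limma adjusted p 0.488).

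NFE2L1, the factor that acts on subunit genes through the element shown above, had 108, 113 and 129 TPM in K700E cells, against 79.3, 137 and 111 TPM in WT cells. WT replicates 1 and 2 lay on either side of all K700E libraries, and the limma adjusted p was 0.808. NFYA, a subunit of the factor that binds CCAAT, had 53.8, 57.9 and 51.2 TPM in K700E cells, against 47.3, 37.1 and 40.2 TPM in WT cells, without overlap, with a log2 difference of 0.38 (SE 0.14) and a limma adjusted p of 0.239. MAFG, a partner of NFE2L1 on its element, was at 51.3 ± 3.06 TPM in K700E cells and 64.4 ± 5.32 TPM in WT cells (SD, n = 3 each), also without overlap, with a limma adjusted p of 0.272.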

How the data were processed

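RNA from K562 cells, isolated on magnetic beads, was made into mRNA libraries per the labels' protocols. The authors deposited TPM values per gene in a table per genotype, so genotype and table coincide and cannot be told apart. Named in the submitters' processing notes are GRCh37 (hg19), featureCounts 2.0.1, TopHat2 2.1, cutadapt 2.10 and DESeq2, while the WT column names, per the file headers, end as sorted STAR files do. The strand setting is not given in the sources used here. TPM multiplied by gene length gave whole multiples of 1 step per library (within 0.01) for 100% of values above 0, and these multiples were taken as read ends. The multiples alone do not show whether a count is a read end or a pair.

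From these values, the 15493 genes averaging 1 TPM or more were fitted by limma 3.58.1 (R 4.3.3) on the log2(TPM + 1) scale (trend, two-sided, Benjamini-Hochberg over all genes tested, threshold 0.05), a procedure tested on simulated data. A fold change on this scale understates low genes. With 3 libraries against 3, an exact permutation test could not reach 0.05, so limma, which pools the spread over genes, was used. Members and lists were chosen with earlier results of these data known, so no p is given over a list. Members given with a test are the 2 with the smallest p in each class; other pathway genes are the 2 with the smallest p in each list. PSMD1, the remaining members, NFE2L1 and PSMB8 are named outside this rule, with their values seen. Gene names came from a table of gene IDs, gene types and GC content from GENCODE 29 (GRCh38) by gene ID only, and promoter letters from RefSeq (GRCh38.p14). Tables and figures used matplotlib 3.10.9, scipy 1.17.1, numpy 2.4.6 and pandas 2.3.3 under Python 3.11.15. Some marker genes are not reported here.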

Additional observations from a re-analysis of the deposited data

How the results depend on the processing

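No member was called in any of the 18 alternative fits, where the smallest limma adjusted p of a member was 0.104 (GC correction). That member was not among the 10 given with a test, whose smallest limma adjusted p with GC correction was 0.288 (PSME3). The direction of its difference in that fit is not reported here. The 10 members given with a test kept a positive log2 difference in each fit, of changing size. They were picked by their p in the fit of TPM as deposited, where all 10 were above 0. Their sign in refits of the same libraries is therefore no separate support. Of all 35 members 29 were above 0 as deposited, 20 with median-ratio scaling and 22 with GC correction. The range over all alternatives was 0.06 to 0.35 for PSMA5, 0.08 to 0.33 for PSMC2, 0.10 to 0.43 for PSMC3, 0.13 to 0.52 for PSMA2 and 0.14 to 0.59 for PSME4. The count of all genes called, 214 (83.2% higher), was 0 with no filter on low values (4891 at an unadjusted p under 0.05) and 92 with a minimum of 5 TPM. It was 122 for protein-coding nuclear genes alone, 495 with GC correction (53.9% higher), and 164 with median-ratio scaling (68.9% higher). Leaving out 1 library gave 0 (without WT replicate 3, with 1462 unadjusted) to 182 calls, with 98 without K700E replicate 1, 84 without K700E replicate 2, 129 without K700E replicate 3 and 125 without WT replicate 2. limma-voom on the recovered reads called 219. The causes were not tested, apart from the other sets of genes tested.

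With median-ratio scaling the median log2 difference was 0.0010 for 20S, 0.0495 for 19S and -0.0469 for activator genes. Leaving out 1 library put the members' median between 0.12 (without K700E replicate 1, with 24 above 0) and 0.28 (without K700E replicate 3, with 33 above 0). The median of all genes was 0.11 and 0.14 in these 2 fits, so the members were 0.0095 and 0.14 above the median gene. The replicate block called 67 genes, or 96 with GC correction, and no member. The labels do not say whether the shared replicate numbers pair the libraries. The correlation of same-numbered deviations was 0.28, -0.19 and 0.30. K700E replicate 1 correlated best with WT replicate 1 (0.28), and K700E replicates 2 and 3 with WT replicates 1 and 2 (0.19 and 0.43). Deviations from a mean of 3 libraries are tied to one another, so these correlations cannot settle whether the libraries are paired. The exclusion of members that share exon bases was chosen after the data were seen. The ratio of sums was recomputed only without 1 library at a time and without members that share exon bases, which put its log2 difference between -0.0695 and -0.0289. The other alternatives, GC correction included, were not run for it. PSMA2, with 254 to 431 read ends per library, is the member with the least depth.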
